A study of Homo sapiens with 8 samples.

Results

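The epithelial-mesenchymal and TGF-beta genes described here are 10 genes chosen by name: CDH1, CDH2, VIM, FN1, ZEB1, SNAI2, TGFBI, TGFB1, TGFB2 and SMAD7. They were found in the count table by their Ensembl identifiers, 10 of 60664 genes in all, and every one of the 10 had counts and passed the expression filter, so that none was unmeasured. RNA was sequenced from A549 cells, a human lung adenocarcinoma line, in 8 libraries that form 4 groups of 2. The groups were untreated cells, cells given AX-0085 (AX0085 in the labels) at 0.5 μM, cells given 20 ng of IFN-γ (per mL by the study's methods), and cells given both. IFN-γ, where given, was added 24 h before AX-0085, and the cells were harvested another 24 h later. All groups shared the same cell line and serum-containing medium, and AX-0085 is a compound that the study examined as an inhibitor of the IFN-γ pathway. The labels do not say that the libraries of a group came from separate cultures, so the p-values measure only the spread between these libraries, which may be technical.

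Epithelial-mesenchymal transition is the switch by which epithelial cells loosen their junctions and take on features of motile mesenchymal cells. E-cadherin holds epithelial neighbours together, and the ZEB and SNAI transcription factors repress its gene. TGF-beta ligands, which signal through receptor kinases and SMAD proteins, are a known driver of this switch in lung epithelium, and SMAD7 is a feedback inhibitor of that pathway.

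Total counts lay between 20672828 and 29978251 per library. The line expressed the lung epithelial keratin genes KRT8, KRT18 and KRT7 strongly in every library. Their levels were 1508 to 4415, 927 to 2383 and 2397 to 4516 CPM (CPM are counts divided by the library size, corrected with TMM factors). KRT19 lay far lower, at 9.53 to 46.5 CPM, and the epithelial adhesion gene EPCAM reached no more than 8.62 CPM. The summed level of the 6 lung epithelial markers was 8821 and 9550 CPM in the untreated libraries, 6089 and 5759 after AX-0085, 7398 and 6512 after IFN-γ, and 7304 and 7221 after both. Markers of other cell types were near or at 0: of 6 fibroblast markers 1 passed the filter (COL1A1), COL1A2 had 0 counts in all libraries and DCN and LUM at most 2, the 4 endothelial markers reached at most 6 counts and the 5 leukocyte markers at most 4, with CD3E and CD68 at 0. The summed fibroblast markers were 9.66 and 11.2 CPM in the untreated libraries, 9.32 and 9.90 after AX-0085, 4.70 and 3.06 after IFN-γ, and 7.03 and 8.50 after both. Mitochondrial genes took 2.72% to 3.55% of the counts in the untreated libraries, 4.12% to 5.73% with AX-0085, 1.71% to 1.82% with IFN-γ, and 2.87% to 3.43% with both, which moved with the groups, and its part in the results was not tested.

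In IFN-γ-treated cells, CDH1 fell to a level below that of all other groups while ZEB1, SNAI2 and SMAD7 rose, and CDH2 was higher by less than 2-fold. AX-0085 added to IFN-γ took CDH1 not only back but above the untreated level, and ZEB1 and SNAI2 fell. The SNAI2 changes, at no more than 53 counts in a library, were not called when certain single libraries were left out. TGFB2 fell under the combination, whereas VIM, a mesenchymal marker, was highest in the groups that received AX-0085.

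A gene was called where the Benjamini-Hochberg-adjusted p of edgeR's quasi-likelihood test over all 15066 genes tested was under 0.05 and the change was over 2-fold (log2 fold change over 1 in size). In IFN-γ-treated against untreated cells, 3 of the 10 genes were called higher and 1 lower, where 27.4% of all genes tested were called, 10.2% higher and 17.2% lower. By the adjusted p alone, 7 of the 10 passed, against 68.1% of all genes, and none of the 10 overlapped between the groups, as was the case for 81.1% of all genes. With AX-0085 added to IFN-γ, relative to IFN-γ alone, 1 gene was called higher and 3 lower, where 24.8% of all genes were called, 16.5% higher and 8.26% lower. Of the 10 genes, 9 passed by adjusted p alone, against 66.6% of all genes, and 9 did not overlap, against 82.7%. AX-0085 against untreated gave 1 call, higher, where 11.9% of all genes were called, 6.37% higher and 5.56% lower. Here 7 passed by adjusted p alone, against 53.3%, and 9 did not overlap, against 76.2%. These shares are a description, since the 10 genes were chosen by name with earlier results of these data known. The share of the 10 was not tested against that of all genes.

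In cells given both treatments, against AX-0085 alone, edgeR called 0 of the 10 genes and DESeq2 also 0, where 3.50% of all genes were called, 1.74% higher and 1.76% lower. At an unadjusted p under 0.05 the number was 7, by adjusted p it was also 7, against 35.1% of all genes, and 7 did not overlap, against 70.7%. Both treatments against untreated gave 1 call higher and 1 lower, where 14.7% of all genes were called, 7.52% higher and 7.22% lower. By adjusted p alone 7 passed, against 57.0%, and 8 did not overlap, against 79.1%. The interaction, which is the AX-0085 change with IFN-γ minus that without IFN-γ, gave 1 positive and 2 negative calls, where 18.6% of all genes were called, 12.1% positive and 6.46% negative. The adjusted p alone passed 9 of the 10 genes in the interaction, against 50.6% of all genes. The comparisons share libraries, with the IFN-γ group and the untreated group each entering several of them, so their values are set side by side and not correlated.

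**Figure D1:**
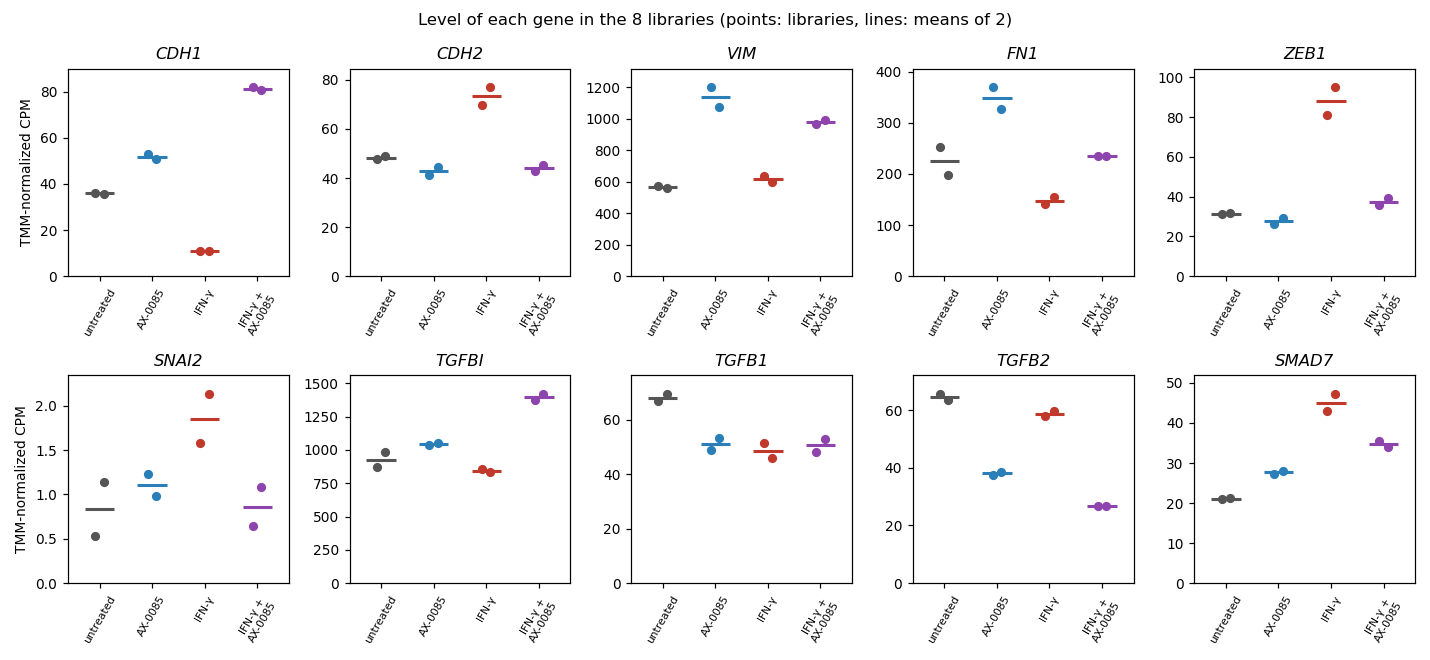
Level of each of the 10 genes in TMM-normalized CPM (vertical axis of each panel, starting at 0) in the 4 groups, with points for the 2 libraries of a group and a line for their mean. CDH1 was lowest with IFN-γ (10.7 and 10.9 CPM) and highest with both treatments (81.8 and 80.7 CPM), and ZEB1 was highest with IFN-γ (81.1 and 94.9 CPM).

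CDH1 (ENSG00000039068, chr16:68737292-68835537 on the plus strand, GRCh38), which encodes E-cadherin, stood at 36.2 and 35.8 CPM in the untreated libraries, 52.7 and 50.6 after AX-0085, 10.7 and 10.9 after IFN-γ, and 81.8 and 80.7 after both. The 4 groups did not overlap and each pair of libraries lay close together, at means of 36.0 ± 0.258, 51.7 ± 1.50, 10.8 ± 0.150 and 81.2 ± 0.757 CPM (SD, n = 2) in that order. In these bulk samples, fewer cells expressing a gene and less RNA of it per cell cannot be told apart. CDH1 fell by 1.73 on the log2 scale with IFN-γ (SE 0.08, adjusted p = 1.19e-10), which is 3.32-fold lower. It rose by 2.91 on that scale on adding AX-0085 to IFN-γ (SE 0.08, adjusted p = 7.53e-13), which is 7.49-fold higher. Under both treatments CDH1 was 2.26-fold above untreated cells (log2 fold change 1.17, SE 0.07, adjusted p = 3.75e-09). AX-0085 alone gave a log2 difference of 0.52 from untreated cells (adjusted p = 1.98e-05), and IFN-γ on top of AX-0085 gave 0.65 (adjusted p = 6.84e-06), both under 2-fold. Thus IFN-γ was accompanied by less CDH1 without AX-0085 and by more CDH1 with it, and the interaction was 2.38 (SE 0.10, adjusted p = 5.46e-10 in edgeR's quasi-likelihood test).

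CDH2 (ENSG00000170558, chr18:27932879-28177946, minus strand) encodes N-cadherin, the cadherin that mesenchymal and neural cells use. Its level was 47.7 and 49.0 CPM in the untreated libraries, 41.1 and 44.5 after AX-0085, 69.9 and 76.9 after IFN-γ, and 42.9 and 45.4 after both. Only the IFN-γ libraries stood above the rest, and the group with both treatments overlapped with AX-0085 alone. The log2 difference was 0.60 with IFN-γ (SE 0.08, adjusted p = 5.33e-06) and -0.74 on adding AX-0085 to IFN-γ (SE 0.08, adjusted p = 8.62e-07), each under 2-fold. The interaction for CDH2 was -0.56 (adjusted p = 5.90e-04), of opposite sign to that of CDH1. Both treatments against AX-0085 alone gave 0.04, with a 95% interval of -0.12 to 0.21.

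The balance of the cadherins can be read within a library, where scaling cancels. The ratio of CDH1 to CDH2 counts was 0.758 and 0.731 in the untreated libraries, 1.28 and 1.14 after AX-0085, 0.153 and 0.142 after IFN-γ, and 1.90 and 1.78 after both. E-cadherin counts thus outnumbered N-cadherin counts in every library with AX-0085 and in no library without it. These counts are not corrected for exon length. Per exon length the ratio was 1.07 and 1.03 in the untreated libraries, and 0.217 and 0.201 after IFN-γ. It was 1.81 and 1.61 after AX-0085, and 2.69 and 2.51 after both. The exon length used is that of all annotated exons of a gene, 6076 bases for CDH1 and 8583 for CDH2, and not of the transcripts expressed. By this measure CDH1 was already above CDH2 in the untreated libraries, but that order depends on these lengths. The ratio of CDH1 to ZEB1 counts, 1.16 and 1.13 in the untreated libraries, was 0.132 and 0.115 after IFN-γ, 2.02 and 1.73 after AX-0085, and 2.28 and 2.06 after both.

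**Figure D2:**
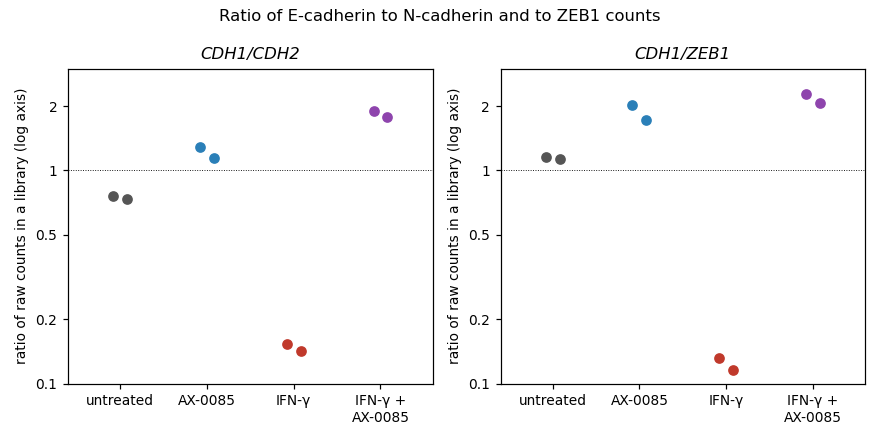
Ratio of CDH1 to CDH2 counts (left) and of CDH1 to ZEB1 counts (right) within each library, on a log axis, by group, with a point for each of the 8 libraries and a dotted line at equal counts. The counts are not corrected for exon length. The 2 IFN-γ libraries lay at 0.153 and 0.142 for CDH1 to CDH2 and at 0.132 and 0.115 for CDH1 to ZEB1, below all others.

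ZEB1 (ENSG00000148516, chr10:31318495-31529814, plus strand) encodes a zinc finger and homeodomain factor that represses CDH1. It stood at 31.2 and 31.6 CPM in the untreated libraries, 26.1 and 29.3 after AX-0085, 81.1 and 94.9 after IFN-γ, and 35.8 and 39.2 after both. The IFN-γ libraries were above all the others, which lay between 26.1 and 39.2 CPM. ZEB1 rose 2.81-fold with IFN-γ (log2 fold change 1.49, SE 0.09, adjusted p = 2.29e-09) and was 2.35-fold lower on adding AX-0085 to IFN-γ (log2 fold change -1.23, SE 0.09, adjusted p = 1.92e-08). With both treatments a log2 difference of 0.25 from untreated cells was left (adjusted p = 0.0284), and IFN-γ on top of AX-0085 gave 0.43 (adjusted p = 2.43e-03). The AX-0085 change without IFN-γ was -0.18 (adjusted p = 0.122). The interaction of ZEB1 was -1.06 (SE 0.13, adjusted p = 1.07e-05), although it lay under 2-fold with scaling by library size alone (-0.94), without the second AX-0085 library (-0.97) and without the second IFN-γ library (-0.96). The antisense gene ZEB1-AS1, whose exons cover 4.58% of the exon bases of ZEB1 with other overlapping genes, had between 51 and 104 counts, against 656 to 2360 for ZEB1.

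SNAI2 (ENSG00000019549, chr8:48917598-48921740, minus strand), which encodes the repressor Slug, was by far the least expressed of the 10 genes. It had 16 and 28 counts in the untreated libraries, 31 and 26 after AX-0085, 30 and 53 after IFN-γ, and 20 and 24 after both, or 0.529 to 2.13 CPM over all libraries. The IFN-γ libraries were the highest after scaling, at 1.58 and 2.13 CPM, and the other 3 groups overlapped. The fit gave a rise of 1.21 on the log2 scale with IFN-γ (SE 0.35, adjusted p = 6.45e-03), -1.18 with AX-0085 added (SE 0.35, adjusted p = 8.08e-03) and an interaction of -1.62 (SE 0.51, adjusted p = 0.0163). These calls rested on single libraries. The IFN-γ change was 0.77 without the first untreated library (adjusted p = 0.0775) and 1.01 without the second IFN-γ library (adjusted p = 0.0623). The AX-0085 change was -0.94 without the second IFN-γ library (adjusted p = 0.0848) and -0.80 without the first library with both treatments (adjusted p = 0.115). For the interaction, the DESeq2 adjusted p was 0.0535, and leaving out the first untreated, the first AX-0085, the second IFN-γ or the first combined library gave adjusted p-values between 0.0614 and 0.0825.

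VIM (ENSG00000026025, chr10:17228241-17237593, plus strand) encodes vimentin, the intermediate filament of mesenchymal cells, which A549 cells also make. Its level was 573 and 561 CPM in the untreated libraries, 639 and 599 after IFN-γ, 1198 and 1076 after AX-0085, and 964 and 989 after both. The 4 libraries with AX-0085 stood above the 4 without it. IFN-γ alone gave a log2 difference of 0.13, with a 95% interval of -0.02 to 0.27 (adjusted p = 0.120), so a change of VIM with IFN-γ was not detected. AX-0085 alone gave 1.00 (SE 0.07, adjusted p = 2.86e-08), which lay at the 2-fold limit: it was 0.999 with the DESeq2 test and 0.924 without the first AX-0085 library. AX-0085 added to IFN-γ gave 0.66 (adjusted p = 9.34e-07) and both treatments gave 0.78 against untreated cells (adjusted p = 2.48e-07). Exons of other genes cover 24.6% of the exon bases of VIM, but the antisense VIM-AS1 had only 6 to 48 counts, against 12091 to 30157 for VIM.

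FN1 (ENSG00000115414, chr2:215360440-215436073, minus strand) encodes fibronectin, a matrix glycoprotein that rises in many cells undergoing the transition. It stood at 252 and 198 CPM in the untreated libraries, 369 and 326 after AX-0085, 140 and 155 after IFN-γ, and 236 and 235 after both. The untreated libraries differed most from each other and enclosed the level reached with both treatments, while the IFN-γ libraries were below all others and the AX-0085 libraries above. The log2 difference was -0.61 with IFN-γ (SE 0.10, adjusted p = 1.62e-04), 0.67 with AX-0085 added to IFN-γ (SE 0.10, adjusted p = 7.87e-05) and 0.63 with AX-0085 alone (SE 0.10, adjusted p = 1.84e-04). None of these was over 2-fold, and the IFN-γ value ranged from -0.77 to -0.37 when single libraries were left out. For both treatments against untreated cells the interval was -0.15 to 0.28, and the interaction was 0.04 with an interval of -0.27 to 0.35, so a difference of the AX-0085 change with and without IFN-γ was not detected for FN1. In direction, FN1 was thus lower and CDH2 and ZEB1 higher with IFN-γ.

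Both TGF-beta ligand genes were lower in AX-0085-treated than in the untreated libraries, with different patterns under IFN-γ. TGFB1 (ENSG00000105329, chr19:41301587-41353922, minus strand) encodes the ligand TGF-beta 1. Its level was 66.7 and 69.3 CPM in the untreated libraries, 48.9 and 53.4 after AX-0085, 51.3 and 45.8 after IFN-γ, and 48.3 and 53.0 after both. The untreated libraries were above the 6 treated ones, which overlapped one another. Against untreated cells the log2 difference of TGFB1 was -0.49 with IFN-γ (adjusted p = 8.35e-05), -0.41 with AX-0085 (adjusted p = 5.72e-04) and -0.43 with both (adjusted p = 3.56e-04), with SEs of 0.08 and each under 2-fold. Adding AX-0085 to IFN-γ gave 0.06, with an interval of -0.11 to 0.23 (adjusted p = 0.534), and the interaction was 0.47 (adjusted p = 3.34e-03). TGFB1 overlaps HNRNPUL1, a well expressed gene, over 6.59% of its exon bases counted with all overlapping genes. HNRNPUL1 had 9435 and 8178 raw counts in the untreated libraries, 6847 and 7678 after AX-0085, 4384 and 5881 after IFN-γ, and 7083 and 5143 after both. The strand setting of the counting is not given in the sources used here, and the part of shared reads in the TGFB1 values was not tested.

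TGFB2 (ENSG00000092969, chr1:218345336-218444619, plus strand) encodes the ligand TGF-beta 2. It stood at 65.5 and 63.6 CPM in the untreated libraries, 57.8 and 59.7 after IFN-γ, 37.6 and 38.6 after AX-0085, and 26.9 and 26.7 after both. The 4 groups did not overlap, and the libraries with AX-0085 were below those without it. The change with IFN-γ was -0.14 (SE 0.07, adjusted p = 0.0896), with an interval of -0.28 to 0.01. TGFB2 fell by 1.13 on the log2 scale on adding AX-0085 to IFN-γ (SE 0.07, adjusted p = 4.24e-09), and both treatments against untreated cells gave a log2 fold change of -1.27, or 2.41-fold lower (adjusted p = 2.26e-09). AX-0085 alone gave -0.76 (adjusted p = 4.62e-07), and the interaction of -0.37 (adjusted p = 5.93e-03) was under 2-fold. Other genes share 34.2% of the exon bases of TGFB2, of which TGFB2-OT1 on the same strand had 0 counts in all libraries and TGFB2-AS1 had 3 to 17. Per exon length, TGFB1 stood 1.89 and 2.02 times as high as TGFB2 in the untreated libraries, 1.64 and 1.42 times with IFN-γ, 2.41 and 2.56 times with AX-0085, and 3.33 and 3.68 times with both.

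The promoters of TGFB2 and SMAD7 are shown because these were the members of the TGF-beta pathway that were called, TGFB2 lower with AX-0085 added to IFN-γ and with both against untreated cells, and SMAD7 higher with IFN-γ. The windows are the 250 bases before a RefSeq start site (GRCh38.p14), written 5′ to 3′ on the strand of the gene, TGFB2 from chr1:218345086-218345335 on the plus strand and SMAD7 from chr18:48950966-48951215 on the minus strand. Capitals mark CAGAC or its complement GTCTG, the letters that SMAD3 and SMAD4 are known to contact.
TGFB2: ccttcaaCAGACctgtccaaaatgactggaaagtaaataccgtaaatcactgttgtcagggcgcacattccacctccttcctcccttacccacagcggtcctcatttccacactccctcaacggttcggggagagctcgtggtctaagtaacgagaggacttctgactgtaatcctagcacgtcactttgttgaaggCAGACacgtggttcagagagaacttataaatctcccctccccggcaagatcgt
SMAD7: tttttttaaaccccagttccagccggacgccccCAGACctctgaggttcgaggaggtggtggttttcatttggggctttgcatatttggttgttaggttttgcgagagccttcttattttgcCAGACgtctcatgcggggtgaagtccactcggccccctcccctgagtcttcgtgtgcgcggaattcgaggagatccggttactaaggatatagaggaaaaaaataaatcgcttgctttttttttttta
Each window shown held CAGAC at 2 places, between 243 and 239 and between 53 and 49 bases before the start site of TGFB2, and between 217 and 213 and between 128 and 124 bases before that of SMAD7. SMAD7 has other start sites whose windows are not shown. The window of one of them held GTCTG and that of another held the E-box CACCTG but neither CAGAC nor GTCTG. Over 17 such windows of 8 members, 8 held CAGAC on either strand, as did 38.0% of all 34943 promoter windows. CDH1 and SNAI2 had no window, and ZEB1 had more windows than any other member. The E-box CACCTG (complement CAGGTG), which ZEB and SNAI factors bind, was in 3 windows and in 17.5% of all promoters, the AP-1 letters TGANTCA in 1 and in 6.59%, and the STAT letters TTCNNNGAA in 0 and in 6.56%. The windows with the E-box were those of ZEB1 and SMAD7, so this count says nothing about CDH1. No other of the 4 motifs lay in the 2 windows shown, a match is a description of letters and not a site of binding, and no match says only that these letters are not in these windows.

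SMAD7 (ENSG00000101665, chr18:48919853-48950965, minus strand) encodes the inhibitory SMAD that blocks TGF-beta receptors and is itself a target of the pathway. It stood at 20.9 and 21.3 CPM in the untreated libraries, 27.4 and 28.1 after AX-0085, 42.9 and 47.1 after IFN-γ, and 35.5 and 34.1 after both. The groups did not overlap, and untreated cells were lowest and IFN-γ-treated cells highest. SMAD7 rose 2.14-fold with IFN-γ (log2 fold change 1.10, SE 0.08, adjusted p = 1.65e-08), a value of 0.98 with scaling by library size alone. AX-0085 added to IFN-γ gave -0.37 (adjusted p = 6.42e-04), and both treatments left a difference of 0.72 from untreated cells (adjusted p = 2.68e-06). AX-0085 alone gave 0.40 (adjusted p = 8.56e-04), while the interaction of -0.77 (adjusted p = 5.40e-05) was under 2-fold.

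TGFBI (ENSG00000120708, chr5:136028988-136063818, plus strand) encodes a secreted matrix protein named for its induction by TGF-beta. It stood at 868 and 982 CPM in the untreated libraries, 1036 and 1055 after AX-0085, 854 and 834 after IFN-γ, and 1372 and 1417 after both. The combined treatment gave the highest libraries and IFN-γ the lowest, without overlap between groups. The log2 difference with IFN-γ was -0.13, with an interval of -0.28 to 0.02 (adjusted p = 0.106), and that with AX-0085 alone was 0.18 (adjusted p = 0.0449). On adding AX-0085 to IFN-γ, the value was 0.72 (adjusted p = 4.06e-07), under 2-fold, and the interaction was 0.55 (adjusted p = 3.36e-04). Of these 2 known targets of TGF-beta, SMAD7 thus rose with IFN-γ, whereas a change of TGFBI with IFN-γ was not detected.

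None of the directions of the 10 genes turned under another scaling (RLE size factors, library size alone or DESeq2). The median log2 fold change of all 15066 genes was -0.06 for IFN-γ, 0.03 for AX-0085 added to IFN-γ and 0.05 for the interaction with TMM factors, and -0.18, 0.16 and 0.17 with library size alone. The median over the 10 genes was -0.0036 for IFN-γ, -0.16 for AX-0085 added to IFN-γ and 0.29 for AX-0085 alone, where the median of all genes was 0.01.

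**Figure D3:**
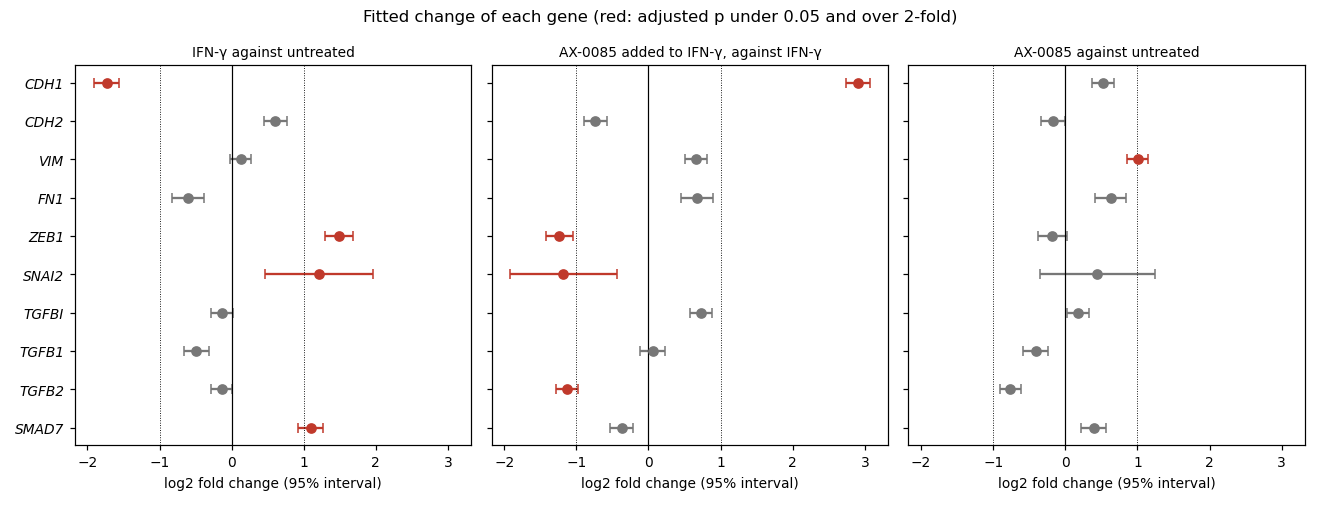
Log2 fold change of each of the 10 genes (horizontal axis, points with 95% intervals) for IFN-γ against untreated, AX-0085 with IFN-γ relative to IFN-γ alone, and AX-0085 against untreated, with red for called genes and dotted lines at 2-fold. CDH1 lay at -1.73, 2.91 and 0.52 and ZEB1 at 1.49, -1.23 and -0.18, while VIM was the only gene called with AX-0085 alone.

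Levels were compared between genes per exon length (RPKM, counts scaled for depth and exon length). The length is that of all annotated exons of a gene, so the order of genes depends on it. In untreated cells the order was TGFBI at 119.9, VIM at 109.6, TGFB1 at 20.8, FN1 at 13.1, TGFB2 at 10.7, CDH1 at 5.92, CDH2 at 5.63, SMAD7 at 5.34, ZEB1 at 3.63 and SNAI2 at 0.255 RPKM, and no neighbours in that order overlapped. TGFBI and VIM were the most abundant in every group, although VIM was first and TGFBI second in the 3 treated groups. With IFN-γ, CDH1 moved from place 6 to place 9 at 1.78 RPKM, below CDH2 at 8.55, and the neighbours SMAD7 and ZEB1, ZEB1 and TGFB2, and FN1 and CDH2 overlapped. With both treatments CDH1 moved to place 5 at 13.4 RPKM, TGFB2 and ZEB1 overlapped at 4.43 and 4.33, and no other neighbours did. With AX-0085 alone no neighbours overlapped.

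The other transcription factors of the transition were read from a list of 12 genes that includes ZEB1 and SNAI2, of which 10 were tested. With IFN-γ 4 rose and 1 fell, with a median log2 fold change of 0.15 where that of all genes was -0.06 and 27.4% of all genes were called. Without the second IFN-γ library 3 were called, all higher. ZEB2, a close relative of ZEB1, had 176 and 135 counts in the untreated libraries, 91 and 115 after AX-0085, 409 and 678 after IFN-γ, and 126 and 82 after both, so that the IFN-γ libraries stood apart. It rose by 2.11 on the log2 scale with IFN-γ (SE 0.13, adjusted p = 3.07e-09), and its log2 fold change was -2.66 on adding AX-0085 (adjusted p = 6.38e-10). SNAI1, which encodes Snail, went another way, with 187 and 163 counts in the untreated libraries, 228 and 201 after AX-0085, 134 and 168 after IFN-γ, and 533 and 431 after both. Its libraries were highest under the combination, and SNAI1 rose by 1.39 on adding AX-0085 to IFN-γ (SE 0.12, adjusted p = 1.36e-07), by 1.13 with IFN-γ on top of AX-0085 (adjusted p = 6.31e-06) and by 1.50 with both against untreated cells (adjusted p = 8.31e-08). The other calls with IFN-γ, named after their values were seen, were FOXC2 at 1.44 and GSC at -1.40. GSC had few counts, at an average log2 CPM of -1.21. With AX-0085 added to IFN-γ the list had 1 call higher (SNAI1) and 3 lower (ZEB1, ZEB2 and SNAI2) at a median of -0.15, where 24.8% of all genes were called. With AX-0085 alone edgeR called 0 of the 10, as did DESeq2, at a median of -0.20, and 4 had an unadjusted p under 0.05.

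Epithelial identity and junction genes, a list of 28 that includes CDH1, had 20 members tested. With IFN-γ 9 fell and 3 rose, at a median of -0.68, where 27.4% of all genes were called. With AX-0085 added to IFN-γ 7 rose and 2 fell, at a median of 0.79, where that of all genes was 0.03 and 24.8% of all genes were called. JUP, which encodes plakoglobin and links cadherins to the cytoskeleton, had 5694 and 4710 counts in the untreated libraries, 9378 and 9365 after AX-0085, 362 and 436 after IFN-γ, and 6650 and 4757 after both. Its IFN-γ libraries were far below the rest, and JUP fell by 3.38 on the log2 scale with IFN-γ (SE 0.07, adjusted p = 3.95e-14) and rose by 3.545 on adding AX-0085 (SE 0.07, adjusted p = 5.35e-14). TJP3, a tight junction scaffold gene with 7 and 12 counts under IFN-γ and 448 and 356 under both, had log2 fold changes of -2.89 and 5.11 in the same comparisons and of 2.22 with AX-0085 alone. The 3 list genes that rose with IFN-γ, named after their values were seen, were the tight junction genes CLDN1 (1.46) and OCLN (1.63) and the epithelial splicing regulator ESRP1 (2.39), and those 2 junction genes were the ones that fell on adding AX-0085 (-2.40 and -1.78). With AX-0085 alone 5 rose, at a median of 0.53, TJP3, the desmosomal gene DSP (1.04, and 0.94 without the second untreated library) and, named after their values were seen, EPCAM (1.33), CLDN3 (1.28) and SPINT1 (1.07), while GRHL1 fell (-1.94), and 11.9% of all genes were called. ESRP1, SPINT1 and GRHL1 had few counts, at average log2 CPM of -1.24, -0.93 and 0.30.

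Of 18 mesenchymal markers, which include VIM, 10 were tested. IFN-γ gave 1 call higher and 3 lower at a median of -0.24, AX-0085 added to IFN-γ gave 2 higher and 2 lower at 0.51, and AX-0085 alone gave 2 higher and 3 lower at -0.14, where 27.4%, 24.8% and 11.9% of all genes were called. The 5 calls with AX-0085 alone were 2 without the second untreated library and 3 without the first AX-0085 library. S100A4, a calcium-binding protein gene used as a fibroblast and transition marker, had 8868 and 7558 counts in the untreated libraries, 7838 and 6584 after AX-0085, 407 and 424 after IFN-γ, and 6737 and 4320 after both. Its level thus moved with that of CDH1 under IFN-γ and not opposite to it, with a log2 fold change of -3.97 (SE 0.13, adjusted p = 3.22e-10) and of 3.42 on adding AX-0085 (adjusted p = 1.34e-09). The other calls with IFN-γ were COL1A1 and, named after their values were seen, SPARC (-3.18) and TAGLN (1.24), those with AX-0085 added to IFN-γ were COL1A1 (1.10), TAGLN and AXL (-1.95), and those with AX-0085 alone beside VIM were LOX (2.29), SPARC (-2.03), TAGLN (-1.01) and AXL. COL1A1, a collagen gene, fell by 1.45 with IFN-γ (adjusted p = 4.27e-06), and TAGLN, an actin-binding protein gene, fell by 2.39 on adding AX-0085 to IFN-γ (adjusted p = 1.46e-08). The AX-0085 change of TAGLN without IFN-γ was under 2-fold in 5 alternatives, at -0.75 without the second untreated library. AXL, a receptor tyrosine kinase gene, had 11193 and 9429 untreated counts and 3147 and 3199 after AX-0085, a log2 fold change of -1.62 (adjusted p = 1.05e-10). LOX had few counts, at an average log2 CPM of -1.76 and an SE of 0.69 for its AX-0085 change.

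**Figure D4:**
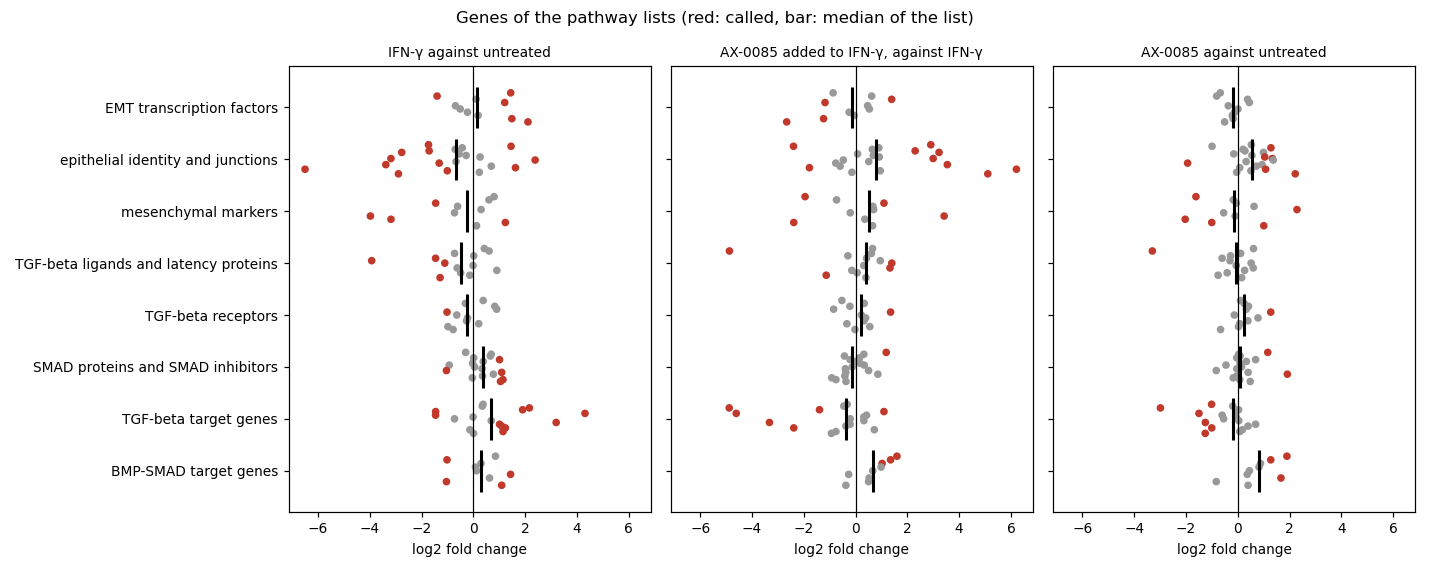
Log2 fold changes (horizontal axis) of the tested genes of 8 lists for the same 3 comparisons, with a point for each gene, red where called, and a black bar at the median of the list. The epithelial list had its median at -0.68 with IFN-γ and at 0.79 with AX-0085 added to IFN-γ, and the TGF-beta target genes at 0.69 and -0.37.

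Among 16 genes of TGF-beta ligands and the proteins that hold them latent or release them, which include TGFB1 and TGFB2, 13 were tested. With IFN-γ 4 fell and 0 rose, at a median of -0.49, where 27.4% of all genes were called. These were THBS1 (-1.28, adjusted p = 1.23e-07) and LTBP1 (-1.10, adjusted p = 2.06e-08), which encode an activator and a carrier of latent TGF-beta, and, named after their values were seen, the integrin genes ITGB6 (-1.46) and ITGB8 (-3.92), whose products release the ligand. With AX-0085 added to IFN-γ the carriers LTBP1 (1.40, adjusted p = 1.81e-09) and LTBP3 (1.33, adjusted p = 1.67e-09) rose, and TGFB2 and the activin subunit gene INHBA (-4.87, named after its value was seen) fell, at a list median of 0.40, where 24.8% of all genes were called. AX-0085 alone gave 1 call, INHBA at -3.30, and a median of -0.06, where 11.9% of all genes were called. INHBA, ITGB6 and ITGB8 had few counts, at average log2 CPM of -0.76, -0.05 and -1.07, below SNAI2 at 0.27.

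Of 14 receptor genes of the family 11 were tested and 1, BAMBI, was called in each of these 3 comparisons, where 27.4%, 24.8% and 11.9% of all genes were called. The count with IFN-γ was 0 without the first IFN-γ or the first combined library, and that with AX-0085 added to IFN-γ was 2 when any one library but the second IFN-γ or the first combined one was left out. BAMBI, which encodes a receptor-like protein without a kinase, had 844 and 635 counts in the untreated libraries, 1661 and 1698 after AX-0085, 244 and 341 after IFN-γ, and 1077 and 748 after both. Its log2 fold change was -1.01 with IFN-γ (adjusted p = 8.13e-08), which was under 2-fold in 6 alternatives, 1.35 with AX-0085 added (adjusted p = 4.17e-09) and 1.27 with AX-0085 alone (adjusted p = 7.38e-09). The list medians were -0.26, 0.22 and 0.25. Of 18 SMAD and SMAD inhibitor genes 17 were tested, and with IFN-γ 4 rose and 1 fell at a median of 0.36. SMAD7 was among those that rose, as were the co-repressor genes TGIF1 (1.15, adjusted p = 1.87e-10) and SKIL (1.01) and the receptor anchor gene ZFYVE9 (1.05), while SMAD6 fell (-1.04), the last 3 named after their values were seen. AX-0085 added to IFN-γ gave 1 call, LDLRAD4 at 1.18, and AX-0085 alone gave 2, SMAD9 at 1.91 and LDLRAD4 at 1.16, all named after their values were seen, at medians of -0.13 and 0.08. SMAD9 and LDLRAD4 had few counts, at average log2 CPM of -0.60 and -0.88. The count of this list was 3 with IFN-γ without the second untreated library, 0 with AX-0085 added to IFN-γ without either IFN-γ library or the first combined one, and 1 with AX-0085 alone without the second untreated or either AX-0085 library.

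TGF-beta target genes, a list of 20 that shares SMAD7 and some others with the lists above, had 17 members tested. With IFN-γ 8 rose and 2 fell at a median of 0.69, with AX-0085 added to IFN-γ 1 rose and 5 fell at -0.37, and with AX-0085 alone 0 rose and 6 fell at -0.19, where 27.4%, 24.8% and 11.9% of all genes were called. IL11, a cytokine gene, had 723 and 594 counts in the untreated libraries, 219 and 220 after AX-0085, 9039 and 11934 after IFN-γ, and 617 and 433 after both. The IFN-γ libraries stood far above the rest, with a log2 fold change of 4.31 with IFN-γ (SE 0.06, adjusted p = 1.42e-15) and of -4.61 on adding AX-0085 (adjusted p = 1.49e-15). CCN2, a matricellular protein gene, had 544 and 450 counts in the untreated libraries, 65 and 53 after AX-0085, 1485 and 2103 after IFN-γ, and 87 and 61 after both. Its log2 fold change was -4.88 on adding AX-0085 to IFN-γ (adjusted p = 1.31e-13) and -2.99 with AX-0085 alone (adjusted p = 2.39e-10). Further calls, named after their values were seen, were ITGB6 (-1.46) and COL1A1 (-1.45), which fell with IFN-γ, COL1A1 (1.10), which rose with AX-0085 added, and TAGLN (-2.39) and CDKN1A (-1.39), which fell with it. Many of these genes also respond to other pathways, and TGF-beta signalling itself was not measured.

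The 9 target genes of BMP signalling, the sister pathway that uses other SMADs, were all tested. With IFN-γ 2 rose and 2 fell at a median of 0.30, while with AX-0085 added to IFN-γ 3 rose and 0 fell at 0.67, and with AX-0085 alone 3 rose and 0 fell at 0.82, where 27.4%, 24.8% and 11.9% of all genes were called. Without the first combined library 2 were called with IFN-γ, both higher. ATOH8, a transcription factor gene, had 313 and 296 counts in the untreated libraries, 1064 and 1085 after AX-0085, 421 and 458 after IFN-γ, and 1876 and 1394 after both. The libraries with AX-0085 stood above the others, and ATOH8 rose by 1.90 on the log2 scale with AX-0085 alone (SE 0.10, adjusted p = 2.57e-09) and by 1.60 with AX-0085 added to IFN-γ (adjusted p = 3.03e-09). ID3, which encodes an inhibitor of basic helix-loop-helix factors, rose by 1.44 with IFN-γ (adjusted p = 2.44e-09), and its relative ID4 by 1.67 with AX-0085 alone (adjusted p = 2.35e-06). The other calls were SMAD7, BAMBI and SMAD6 with IFN-γ, BAMBI and HEY1 (1.02, named after its value was seen) with AX-0085 added, and BAMBI with AX-0085 alone.

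Some of these genes differed between cells given both treatments and untreated cells, where 14.7% of all genes were called. The BMP targets had 5 calls higher and 0 lower at a median of 1.07 where that of all genes was 0.01, with ATOH8 at 2.46 (adjusted p = 1.28e-10) and ID3 at 1.17 (adjusted p = 4.51e-08). The epithelial list had 4 higher and 1 lower at a median of 0.09, with TJP3 at 2.22 (adjusted p = 2.31e-09) and DSP at 1.18 (adjusted p = 5.73e-09) beside CDH1. The mesenchymal list had 0 higher and 3 lower at -0.45, TAGLN at -1.15 (-0.89 without the second untreated library), AXL at -1.15 and, named after its value was seen, SPARC at -2.82. The ligand list had 1 higher, the convertase gene FURIN at 1.08, and 4 lower at -0.28, the target list 1 higher, the SMAD inhibitor gene PMEPA1 at 1.01 (0.98 without the first untreated library or the second combined one), and 3 lower at -0.11, with CCN2 at -2.71. The transcription factors had 1 higher (SNAI1) at a median of 0.03, the SMAD list 2 higher at 0.23 (0 without the first untreated library and 1 without the second combined one), and the receptors had 0 calls by edgeR and by DESeq2 at 0.03, with 5 at an unadjusted p under 0.05.

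With IFN-γ on top of AX-0085, 3.50% of all genes were called. The transcription factors had 2 higher at a median of 0.09, the epithelial list 2 lower at -0.24 (1 without either AX-0085 library or the first combined one), the ligand list 2 lower at -0.21, with THBS1 at -1.03 (adjusted p = 6.31e-06), and the TGF-beta targets 3 higher at 0.33, with IL11 at 1.21 (adjusted p = 6.32e-08). The mesenchymal, receptor, SMAD and BMP lists had 0 calls by edgeR and by DESeq2, at medians of -0.34, -0.27, 0.06 and 0.33, with 6, 9, 9 and 8 genes at an unadjusted p under 0.05. The mesenchymal list had 1 call without the second untreated, the first AX-0085 or either IFN-γ library, and the SMAD list 1 without the first untreated, the second IFN-γ or the first combined library. In the interaction, where 18.6% of all genes were called, the epithelial list had 8 positive and 3 negative calls at a median of 0.34, the TGF-beta targets 1 positive and 5 negative at -0.26, and the mesenchymal list 3 positive and 1 negative at -0.14. The transcription factors had 1 positive and 3 negative calls at 0.02, the BMP list 1 and 1 at 0.08, the receptors 0 and 1 at -0.06, the SMAD list 1 and 0 at -0.35, and the ligand list 0 by edgeR and by DESeq2 at 0.38, with 8 at an unadjusted p under 0.05. The 4 calls of the transcription factors were 1 without the second IFN-γ and 2 without the second AX-0085 library, the 2 of the BMP list were 1 without either of these, and the SMAD list had 2 without the first untreated, AX-0085 or IFN-γ library.

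The genes with the pattern most like a member over the 8 libraries were found by the smallest Euclidean distance of centred log2 CPM among 10168 genes. For CDH1 these were MGAT5B (distance 0.378, Pearson's r 0.997) and ADAMTS15 (0.437, r 0.990), and for ZEB1 they were CCDC59 (0.265, r 0.990) and SDE2 (0.272, r 0.993). For SMAD7 they were PRKAB2 (0.164, r 0.990) and TAB2 (0.165, r 0.992), and for TGFB2 they were ZNF185 (0.203, r 0.992) and CHORDC1 (0.221, r 0.992). The nearest gene to SNAI2, TUSC1, lay farther away (0.801, r 0.875). The 8 points of each r share their libraries, depth and group structure, so the values are a description.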

How the data were processed

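The 8 RNA-seq libraries of A549 cells were assigned to 4 treatment groups of 2 by their labels. Per the submitters' processing notes and the study's methods, the authors trimmed reads with Trim Galore 0.6.7, mapped them to GRCh38 with STAR 2.7.9a and counted them per gene with featureCounts, and they deposited raw counts without normalization. The annotation release, the strand setting and the treatment of multi-mapping reads are not given in the sources used here, so genes that share exons can share reads.

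Identifiers were matched to GENCODE 44 (60463 of 60664), which gave symbols, positions on GRCh38, exon overlaps and the exon lengths behind RPKM. Those lengths merge the exons of all annotated transcripts of a gene, whichever of them were expressed. Of 26065 genes with counts, 15066 passed edgeR's filterByExpr. With edgeR 4.0.16 in R 4.3.3, TMM factors were computed and a quasi-likelihood model of the 4 groups was fitted to all 8 libraries without covariates (common biological coefficient of variation 0.0609). P-values were Benjamini-Hochberg-adjusted over all genes tested, and calls needed both an adjusted p below 0.05 and a change beyond 1 on the log2 scale. The exact permutation test of a single gene cannot go below 0.333 with 2 libraries against 2, so it was not used. At these depths 3 counts correspond to 0.100 to 0.145 CPM, which covers counting error only.

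The members and lists were chosen with earlier results of these data known. Named genes were all 10 members, up to 2 called genes per list and comparison with the largest change (mean log2 CPM 2 or more, groups not overlapping), and the 2 genes nearest in pattern to a member. Some genes that meet this rule or belong to the lists are counted but not reported here by name. RefSeq promoter windows (GRCh38.p14) matched 8 members, all but CDH1 and SNAI2. Alternatives were DESeq2 1.42.0, RLE size factors, library size alone, other filters, a call by adjusted p alone, a fit of only the 2 groups, a block by replicate number and leaving out each library. In simulated counts for the 15066 genes of the IFN-γ comparison, edgeR recovered 100 of 100 genes planted at a log2 change of 1.5 and 100 of 100 at 3, with 2 false calls. Only well counted genes were planted, all genes had the same dispersion, and far fewer genes changed than were called here. The simulation thus does not cover genes with few counts, such as SNAI2, or genes with a larger spread.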

Additional observations from a re-analysis of the deposited data

Results flagged for a closer look

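For CDH1, ZEB1 and SNAI2 the AX-0085 change differed between cells with and without IFN-γ by the test of the difference itself, the interaction term of edgeR's quasi-likelihood model with adjustment over all genes tested. The log2 difference of the change was 2.384 for CDH1 (adjusted p = 5.46e-10), where AX-0085 gave 2.91 with IFN-γ and 0.52 without it. For ZEB1 it was -1.056 (adjusted p = 1.07e-05), from -1.23 with IFN-γ and -0.18 without, and it lay under 2-fold in 3 alternatives (-0.97 to -0.94). For SNAI2 it was -1.624 (adjusted p = 0.0163), from -1.18 and 0.45, on no more than 53 counts in a library, and it did not pass with DESeq2 (adjusted p = 0.0535) or in 4 of the 8 fits that left out a library (adjusted p-values of 0.0614 to 0.0825). The groups of 2 libraries are too small for a test of single outlying libraries.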

How the results depend on the processing

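The calls of CDH1 with IFN-γ, with AX-0085 added to IFN-γ and with both treatments, of ZEB1 in the first 2 of these and of TGFB2 in the last 2 passed under every alternative run, with CDH1 between -1.85 and -1.68 for IFN-γ. By the adjusted p alone, the number of the 10 genes called was 7 for IFN-γ, 9 for AX-0085 added to IFN-γ, 7 for AX-0085, 7 for both against AX-0085, 7 for both against untreated and 9 for the interaction, where it was 4, 4, 1, 0, 2 and 3 with the 2-fold limit. With AX-0085 alone the count was 0 with DESeq2, RLE size factors, no filter beyond 1 count or only the groups compared, since VIM lay at the limit (0.99 to 1.00). Leaving out single libraries gave 3 to 4, 3 to 4, 0 to 1, 0, 2 and 1 to 3 calls in the same order of comparisons, with 0 for AX-0085 without the second untreated or first AX-0085 library and 1 for the interaction without the second IFN-γ library. It turned the sign of values near 0: TGFB1 with AX-0085 added to IFN-γ (-0.0281 to 0.131) and with both against AX-0085 (-0.0813 to 0.0762), CDH2 with both against AX-0085 (-0.00863 to 0.11), FN1 with both against untreated (-0.10 to 0.29) and in the interaction (-0.16 to 0.20), and SNAI2 with AX-0085 (-0.0334 to 1.05) and with both against untreated (-0.42 to 0.64). The causes were not tested. Libraries of the same replicate number shared little of their deviation from the group mean (correlations over genes of -0.109 to 0.0873). This cannot exclude that they were prepared together, and the column names carry A for the first and B for the second libraries. The replicate block gave 4, 4, 1, 0, 2 and 3 calls, as did a block with the untreated numbers swapped, chosen after seeing the data. Counts of the gene lists moved by over 1.5 times in 112 cases and by less in 696. Low counts limit SNAI2. They limit further the named list genes INHBA, ITGB6, ITGB8, LOX, ESRP1, GSC, SPINT1, SMAD9 and LDLRAD4. Their average log2 CPM ranged from -1.76 (LOX) to -0.05 (ITGB6), against 0.27 for SNAI2.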
